A study of Mus musculus with 6 samples.

Results

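Nanos2, Nanos3, Dnd1, Dazl, Lin28a, Lin28b, Igf2bp1, Igf2bp3 and Pum2 encode 9 RNA-binding proteins of the germline, and their transcripts were compared between Dnmt3A KO/KO and Dnmt3A WT/WT male germ cells. The 9 genes were chosen by name, as members of the Nanos, Lin28, Dazl, Dnd1, Igf2bp and Pumilio families. All 9 were found among the 54087 gene rows of every file, and all 9 were among the 21314 genes that passed the filter on low counts. The cells came from male C57BL/6 mice at 10 days post partum and were those with a bright or medium signal from an Id4-GFP reporter carried by both genotypes, a gate that the labels equate roughly with spermatogonial stem cells. RNA of 3 KO/KO and 3 WT/WT samples was sequenced. The labels say neither how the Dnmt3A allele was removed, nor in which cells, nor whether numbered samples of a genotype are different animals. The p-values therefore rest on the spread between these samples, which may be technical.

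RNA-binding proteins decide which germ cell transcripts are translated and which are destroyed, and several of these are required for male fertility in the mouse. NANOS proteins are zinc finger proteins that bring the CCR4-NOT deadenylase to their target transcripts, with DND1 as a partner of NANOS2, while DAZL promotes the translation of germ cell transcripts and Pumilio proteins repress those that carry their motif. LIN28A and LIN28B block the maturation of let-7 microRNAs, which in turn repress Lin28 and Igf2bp transcripts, and IGF2BP proteins protect their bound transcripts from decay.

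The sequences shown first are the let-7 seed and the places in the transcripts where it can pair, since they divide the 9 genes. The 3 mature microRNAs below come from RefSeq (GRCm38.p6), written 5′ to 3′ with the seed, bases 2 to 8, in capitals, and they share that seed.
let-7a-5p: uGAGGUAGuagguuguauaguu
let-7g-5p: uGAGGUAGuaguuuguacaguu
miR-98-5p: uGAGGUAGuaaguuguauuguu
The seed match CTACCTC was searched on the transcript strand in the longest annotated 3′ untranslated region of each gene (GENCODE M21, GRCm38). Igf2bp1 held 4 matches in 6337 bases, Lin28b 4 in 4445 bases, Lin28a 2 in 2775 bases and Igf2bp3 1 in 2119 bases. Nanos2, Nanos3, Dnd1, Dazl and Pum2 held 0. Among genes whose region was within 20% of the same length, as many matches or more were found in 0.178% of 563 for Igf2bp1, 0.157% of 1270 for Lin28b, 2.06% of 2428 for Lin28a and 13.3% of 2783 for Igf2bp3. The first match of each of these 4 genes is printed with the bases around it, the match in capitals.
Igf2bp1, chr11:95961777-95961804, minus strand: cagtgctgtgcgaagtaaaCTACCTCaa
Lin28b, chr10:45381021-45381048, minus strand: cttcacccgggcgggaagtCTACCTCat
Lin28a, chr4:134005188-134005215, minus strand: gagtgcacagcctgttgaaCTACCTCat
Igf2bp3, chr6:49086786-49086813, minus strand: aacgtgcatttttactcaaCTACCTCag
The Pumilio motif TGTANATA, with N any base, was found 2 times each in Pum2 and Lin28b, 1 time in Lin28a and 0 times in the other 6 genes. It was present at least once in 43.2% of genes with a region about as long as that of Pum2 and in 55.0% for Lin28b. As many motifs or more were found in 14.1% of such genes for Pum2 and in 24.5% for Lin28b. These matches are letters in the annotated transcripts, and binding was not measured.

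The gene rows summed to between 43951664 and 61749155 counts in KO/KO libraries and between 42681201 and 48423509 in WT/WT libraries. Dnmt3a itself had a mean of 98.1 ± 7.18 CPM (counts scaled by library size and composition) in KO/KO and 199 ± 14.3 CPM in WT/WT (SD, n = 3 each). Whole-gene counts do not show where in the gene the reads left in KO/KO lie or which cells gave them, and their source was not tested. The KO/KO libraries differed more among themselves (chi-square per degree of freedom 36.3 to 49.2) than the WT/WT libraries did (12.4 to 14.8). Against the WT/WT libraries the value was 34.5 to 35.4 for KO/KO replicate 1 and 69.7 to 90.0 for KO/KO replicates 2 and 3. Of 6 germ cell markers 5 exceeded 1 CPM, with Ddx4, an RNA helicase of germ cells, at 432, 472 and 407 CPM in KO/KO and 364, 381 and 363 CPM in WT/WT. The 6 summed to between 944 and 1052 CPM in KO/KO and between 994 and 1087 CPM in WT/WT. None was called higher, and Sycp3 and Dppa3 were called lower. Dppa3 was under 1 CPM in every library, and the median log2 fold change of the 6 was -0.29. Dazl, itself among the RNA-binding protein genes compared here, is among these 6 markers. It gave 404, 305 and 350 CPM of the sums in KO/KO and 397, 446 and 457 CPM in WT/WT. The sums and the median are therefore not a measure of germ cell content independent of the genes compared. Sertoli cell transcripts were present in every library, with 10 listed markers summing to between 464 and 648 CPM in KO/KO and between 441 and 677 CPM in WT/WT and none past the test. Endothelial markers summed to between 120 and 159 CPM in KO/KO and between 33.7 and 40.1 CPM in WT/WT, with 4 of 6 higher (Cdh5, Vwf, Kdr and Flt1) and Pecam1 and Tek not called, and 2 of 6 stromal markers, Pdgfra and Col1a1, were lower. Of 6 macrophage and leukocyte markers 5 stayed under 1 CPM in every library, and Cd68 was higher in KO/KO. The 5 myoid markers summed to between 8.32 and 11.9 CPM in KO/KO and between 5.84 and 19.3 CPM in WT/WT, and the 6 Leydig markers to between 3.57 and 7.25 CPM in KO/KO and between 6.59 and 16.0 CPM in WT/WT. The part of these cells in the results below was not tested.

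Of the 9 RNA-binding protein genes 2, Nanos2 and Igf2bp1, rose in KO/KO and none fell (quasi-likelihood test of edgeR, p adjusted by Benjamini-Hochberg over all tested genes and under 0.05). Among all 21314 genes 8.33% were called higher and 6.42% lower, 14.8% in all. The share of the 9 called was 22.2% and rests on 2 genes. The median log2 fold change of the 9 was -0.15, against 0.00 over all genes, with 3 above and 6 below 0. Neither call held in every fit with a library left out: the number of the 9 called higher was then between 0 and 1, and that called lower between 0 and 1. The RNA was taken from pools of sorted cells, in which fewer cells of a type and less RNA per cell cannot be told apart.

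**Figure D1:**
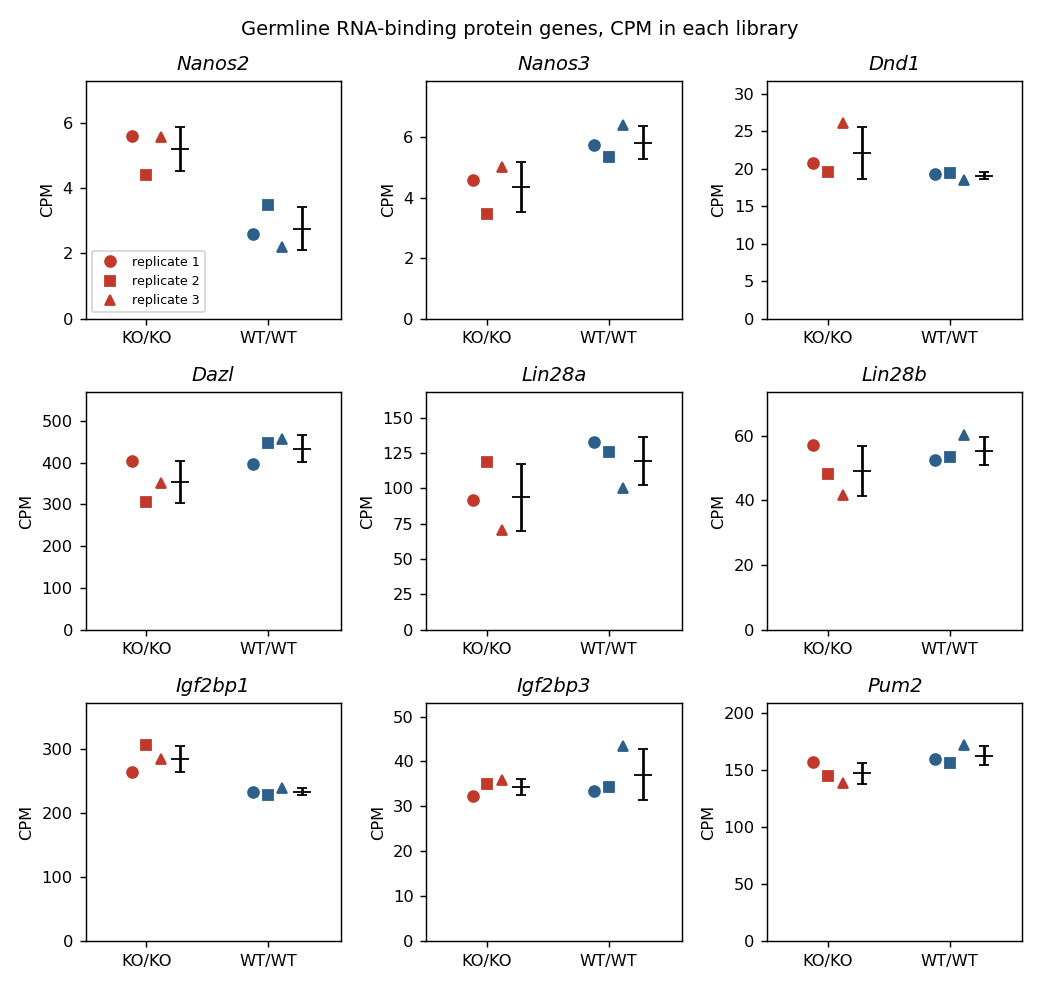
CPM of the 9 genes in the 3 KO/KO libraries (left, red) and the 3 WT/WT libraries (right, blue), 1 point per library with the shape giving the replicate number, and the mean with its SD in black. For Nanos2, Dnd1 and Igf2bp1 all KO/KO points lie above all WT/WT points, for Nanos3 they lie below, and for the other 5 genes they overlap. Among all tested genes 35.8% did not overlap, 18.2% with KO/KO above and 17.5% with KO/KO below.

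Nanos2, which holds mouse spermatogonial stem cells in an undifferentiated state, had the largest difference of the 9. It stood at 5.61, 4.42 and 5.59 CPM in KO/KO (251, 218 and 360 counts) and at 2.60, 3.49 and 2.18 CPM in WT/WT (114, 168 and 89 counts). Every KO/KO library lay above every WT/WT library, as 18.2% of all tested genes did. The log2 fold change was 0.91 (SE 0.23, 95% interval 0.40 to 1.42, edgeR adjusted p = 0.0260), a 1.88-fold difference, and 14.0% of tested genes had a larger one in either direction. Without KO/KO replicate 1 or 3 or WT/WT replicate 1 or 3 the call was lost, with edgeR adjusted p between 0.0521 and 0.102. The gene lies on chromosome 7 at 18987400 to 18988962 (GRCm38, plus strand), and 49% of its exon bases lie under exons of Gm45058 on the opposite strand. Whether counting used strand is unstated, so reads of the pair cannot be told apart.

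Nanos3, a relative also found in undifferentiated spermatogonia of the mouse, had values of 4.58, 3.45 and 5.03 CPM in KO/KO and 5.73, 5.34 and 6.40 CPM in WT/WT. The KO/KO libraries all lay below the WT/WT libraries, as 17.5% of tested genes did, but Nanos3 did not pass the test (log2 fold change -0.42, SE 0.20, 95% interval -0.86 to 0.02, edgeR adjusted p = 0.192). The balance of the 2 genes was compared within libraries, as the ratio of their length-scaled levels. Nanos2 stood at 0.724, 0.758 and 0.657 of the Nanos3 level in KO/KO and at 0.269, 0.386 and 0.202 of it in WT/WT. The genotypes did not overlap, with a difference in log2 ratio of 1.37 (two-sided exact permutation test p = 0.10, adjusted p = 0.15 over 3 pairs of relatives), and 0.10 is the smallest p that 3 against 3 libraries can give. Nanos3 lies on chromosome 8 (84173731 to 84185217, minus strand). Nanos1, a relative outside the 9 genes, fell to 14.3, 10.1 and 9.20 CPM in KO/KO, against 18.4, 16.6 and 20.3 CPM in WT/WT (log2 fold change -0.72, SE 0.18, edgeR adjusted p = 0.0243). That call was lost in 5 of the 6 fits with a library left out, with edgeR adjusted p up to 0.101.

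Dnd1, on chromosome 18, encodes a partner of NANOS2 in binding transcripts. Its levels were 20.7, 19.6 and 26.0 CPM in KO/KO and 19.3, 19.4 and 18.5 CPM in WT/WT. All KO/KO libraries lay above all WT/WT libraries, as for 18.2% of tested genes. KO/KO replicate 2 was only just above and KO/KO replicate 3 well above. Dnd1 did not pass the test (log2 fold change 0.21, SE 0.13, 95% interval -0.08 to 0.51, edgeR adjusted p = 0.315). Exons of Wdr55, on the opposite strand, cover 5.8% of its exon bases.

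Dazl, the translation activator, was the most abundant of the 9 and was spread widely in KO/KO, at 404, 305 and 350 CPM, against 397, 446 and 457 CPM in WT/WT. KO/KO replicate 1 lay within the WT/WT range and the other 2 KO/KO libraries below it. The log2 fold change of -0.30 (SE 0.11, 95% interval -0.53 to -0.06) missed the threshold over all genes (edgeR adjusted p = 0.0948), and it passed without KO/KO replicate 1, at -0.40 (edgeR adjusted p = 0.0305). Dazl lies on chromosome 17 at 50279395 to 50293636, minus strand. Its relative Boll stood at 26.6, 26.6 and 18.4 CPM in KO/KO and 26.5, 26.5 and 25.8 CPM in WT/WT and was not called (edgeR adjusted p = 0.580).

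Neither Lin28 gene passed the test. Lin28a, found in undifferentiated spermatogonia of the mouse, was spread widely among the KO/KO libraries, at 91.6, 118 and 70.8 CPM, against 133, 126 and 100 CPM in WT/WT. KO/KO replicate 2 lay within the WT/WT range and the other 2 KO/KO libraries below it. Its log2 fold change was -0.35 (SE 0.17, 95% interval -0.74 to 0.03, edgeR adjusted p = 0.206), and -0.56 without KO/KO replicate 2 (edgeR adjusted p = 0.0274). Lin28b had 57.2, 48.2 and 41.8 CPM in KO/KO and 52.3, 53.3 and 60.2 CPM in WT/WT, with overlapping groups (log2 fold change -0.17, SE 0.12, 95% interval -0.45 to 0.10, edgeR adjusted p = 0.391). Per length, Lin28a stood at 3.63, 5.58 and 3.85 times Lin28b in KO/KO and at 5.75, 5.35 and 3.78 times Lin28b in WT/WT. The ratios overlapped, with a difference in log2 ratio of -0.19 (two-sided exact permutation p = 0.60, adjusted p = 0.60). Lin28a lies on chromosome 4 (134003330 to 134018841, minus strand), with 5.86% of its exon bases under Gm13061 on the opposite strand, and Lin28b on chromosome 10 (45376620 to 45486395, minus strand).

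Igf2bp1, which shields bound transcripts from decay and holds 4 of the let-7 seed matches shown above, rose by a small amount with little spread. It stood at 264, 305 and 284 CPM in KO/KO and at 233, 228 and 238 CPM in WT/WT. No KO/KO library reached down to the WT/WT range, as for 18.2% of tested genes. The log2 fold change was 0.29 (SE 0.08, 95% interval 0.12 to 0.46, edgeR adjusted p = 0.0342), a 1.22-fold difference, and 99.2% of all genes called higher had one as large or larger. The call was lost without any 1 library other than KO/KO replicate 1 (edgeR adjusted p between 0.0552 and 0.157), and with upper quartile factors (edgeR adjusted p = 0.0514). The gene lies on chromosome 11 at 95957163 to 96005940, minus strand.

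Igf2bp3 did not follow it, at 32.4, 35.0 and 35.8 CPM in KO/KO and 33.3, 34.2 and 43.5 CPM in WT/WT. The groups overlapped and WT/WT replicate 3 was the highest (log2 fold change -0.11, SE 0.12, 95% interval -0.38 to 0.17, edgeR adjusted p = 0.617), and without that library the sign turned, to 0.0248. The gene lies on chromosome 6 (49085223 to 49214957, minus strand), and 18.7% of its exon bases lie under Malsu1 on the opposite strand, itself at 19.4 ± 1.68 CPM in KO/KO and 19.4 ± 2.64 CPM in WT/WT (SD, n = 3 each). Igf2bp1 exceeded Igf2bp3 per length 6.87-, 7.35- and 6.67-fold in KO/KO libraries and 5.88-, 5.62- and 4.62-fold in WT/WT libraries. The genotypes did not overlap, with a difference in log2 ratio of 0.38 (two-sided exact permutation p = 0.10, adjusted p = 0.15). The largest difference in this family was that of Igf2bp2, which is outside the 9 genes. It rose to 43.0, 61.5 and 51.3 CPM in KO/KO, against 23.6, 22.6 and 19.3 CPM in WT/WT (log2 fold change 1.25, SE 0.14, edgeR adjusted p = 0.000821), and was called in every fit with a library left out. Of the summed length-scaled level of the 3 Igf2bp genes, Igf2bp2 made up 15.7%, 18.8% and 17.1% in KO/KO and 10.2%, 9.93% and 8.02% in WT/WT.

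Pum2, a Pumilio repressor, stood at 157, 144 and 139 CPM in KO/KO and 160, 156 and 172 CPM in WT/WT. KO/KO replicate 1 lay just inside the WT/WT range and the other 2 KO/KO libraries below it (log2 fold change -0.15, SE 0.08, 95% interval -0.33 to 0.03, edgeR adjusted p = 0.256). Its relative Pum3 stood at 84.5, 70.3 and 77.5 CPM in KO/KO and 78.4, 77.8 and 82.3 CPM in WT/WT and was not called (edgeR adjusted p = 0.827). Pum2 lies on chromosome 12 at 8674134 to 8752581, plus strand.

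**Figure D2:**
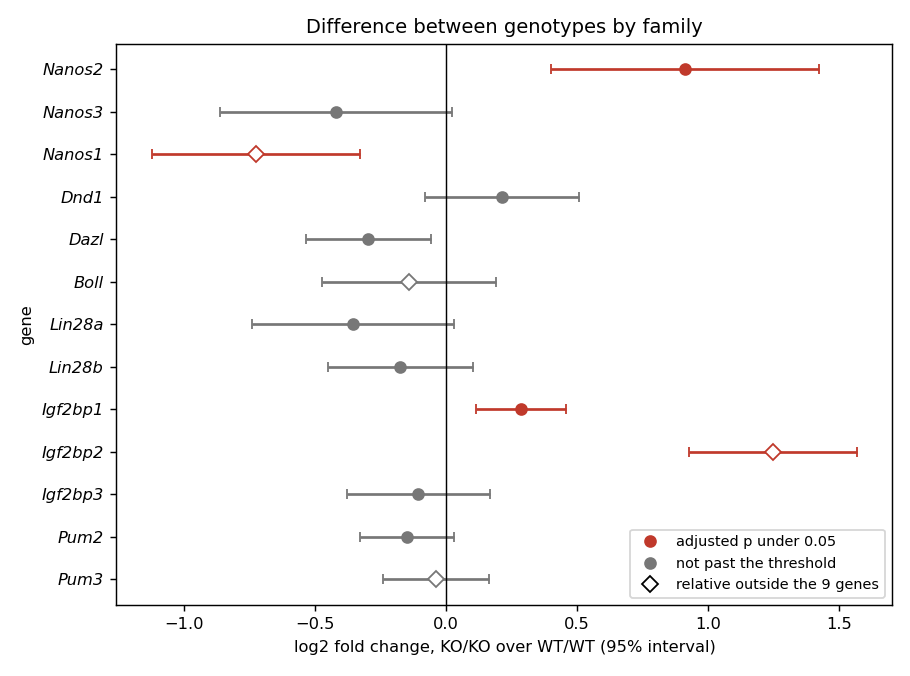
Log2 fold change of KO/KO over WT/WT with its 95% interval for the 9 genes (circles) and 4 relatives (open diamonds), grouped by family, red where the edgeR adjusted p is under 0.05. Within the Nanos family Nanos2 (0.91) and Nanos1 (-0.72) lie on opposite sides of 0, and in the Igf2bp family Igf2bp2 (1.25) lies farthest to the right.

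**Figure D3:**
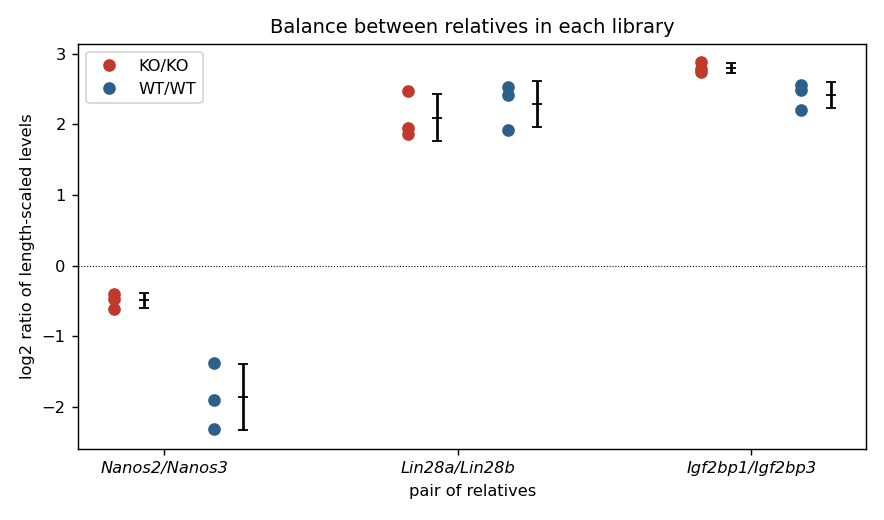
Log2 ratio of the length-scaled levels of 3 pairs of relatives in each KO/KO (red, left) and WT/WT (blue, right) library, with mean and SD in black. The genotypes separate for Nanos2/Nanos3 and Igf2bp1/Igf2bp3 and overlap for Lin28a/Lin28b.

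The order of the 9 genes was compared per length, as CPM per kb of exon. Dazl led in both genotypes, at 92.4 ± 13.0 in KO/KO and 113 ± 8.40 in WT/WT (SD, n = 3 each), above 98.7% of tested genes in KO/KO and 99.0% in WT/WT. In KO/KO it was followed by Igf2bp1 (29.4 ± 2.13), Lin28a (23.4 ± 5.98) and Pum2 (20.2 ± 1.31), of which each overlapped its neighbour. In WT/WT Lin28a (29.9 ± 4.26) came second, above Igf2bp1 (24.1 ± 0.55) and Pum2 (22.4 ± 1.15), and these last overlapped. Dnd1 followed at 9.17 ± 1.43 in KO/KO and 7.91 ± 0.19 in WT/WT, overlapping no neighbour. Lin28b, Nanos3 and Igf2bp3 formed a group between 4.22 and 5.41 in KO/KO, each overlapping the next, and between 4.54 and 6.31 in WT/WT, where Nanos3 and Lin28b overlapped. Nanos2 was lowest in both, at 3.33 ± 0.43 in KO/KO and 1.77 ± 0.43 in WT/WT.

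**Figure D4:**
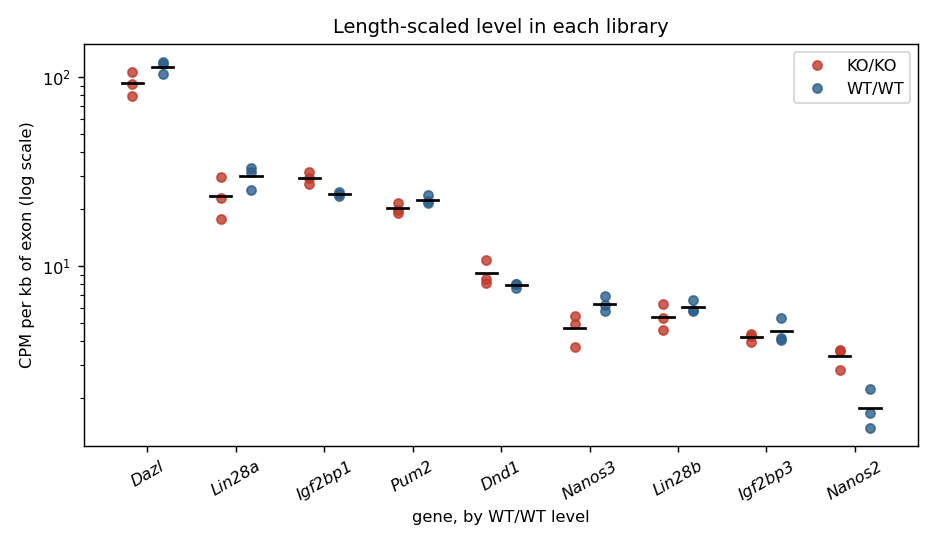
CPM per kb of exon (log axis) of the 9 genes in each KO/KO (red, left) and WT/WT (blue, right) library, ordered by the WT/WT mean shown as a black bar. Dazl is highest and Nanos2 lowest in both genotypes, and Igf2bp1 lies above Lin28a in KO/KO and below it in WT/WT by the means.

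The genes with the pattern most like that of Nanos2 over the 6 libraries, among the 9143 genes whose average log2 CPM was 3 or more, were Rnf2 (Pearson r = 0.997), Zfp830 (0.989) and Ndrg3 (0.985). Rnf2, a Polycomb ubiquitin ligase, stood at 66.4, 63.1 and 66.3 CPM in KO/KO and 55.9, 60.6 and 53.5 CPM in WT/WT. None of these 3 passed the edgeR test (edgeR adjusted p = 0.145, 0.473 and 0.250), and 183 genes had r over 0.9. These values describe 6 points that fall into 2 genotypes.

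Because DNMT3A methylates cytosine before guanine, the CpG content upstream of the start sites is given, and the sequences of 2 Nanos and 2 Igf2bp genes are shown for its range. In the 250 bases upstream of the RefSeq start (GRCm38.p6) Nanos2 held 0 CpG, as did 7.87% of 32851 promoters, and Nanos3 held 3. Igf2bp2 held 40, a number reached by 1.31% of promoters, and Igf2bp3 held 21. Nanos1 held 25, a number reached by 10.7%. Dazl held 20, Lin28a 7, Lin28b 6, and the 3 starts of Pum2 between 30 and 36. The 250 bases of Nanos3, of Lin28b and of the Pum2 start with 36 CpG lie within the GENCODE spans of those genes, not upstream of them. Those of the Pum2 start with 34 CpG lie partly within its span. For Nanos2 only 126 of the 250 bases lie outside its own annotated exons. The stretches outside the gene's own annotated exons are printed on the gene's strand with each CpG in capitals.
Nanos2, chr7:18987274-18987399, plus strand: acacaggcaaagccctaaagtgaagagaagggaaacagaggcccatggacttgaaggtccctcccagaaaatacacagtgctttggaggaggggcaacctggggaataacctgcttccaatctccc
Nanos3, chr8:84176553-84176802, minus strand: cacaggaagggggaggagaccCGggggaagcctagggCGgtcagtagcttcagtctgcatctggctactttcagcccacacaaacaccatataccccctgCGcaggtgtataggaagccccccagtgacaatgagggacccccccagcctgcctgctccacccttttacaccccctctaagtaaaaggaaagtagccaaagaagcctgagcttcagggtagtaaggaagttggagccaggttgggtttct
Igf2bp2, chr16:22163300-22163549, minus strand: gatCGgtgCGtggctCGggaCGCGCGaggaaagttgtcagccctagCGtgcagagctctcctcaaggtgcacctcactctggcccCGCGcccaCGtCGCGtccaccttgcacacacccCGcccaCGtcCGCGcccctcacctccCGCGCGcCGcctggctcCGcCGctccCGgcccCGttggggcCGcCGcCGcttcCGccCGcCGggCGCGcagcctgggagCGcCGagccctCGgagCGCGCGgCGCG
Igf2bp3, chr6:49214958-49215204, minus strand: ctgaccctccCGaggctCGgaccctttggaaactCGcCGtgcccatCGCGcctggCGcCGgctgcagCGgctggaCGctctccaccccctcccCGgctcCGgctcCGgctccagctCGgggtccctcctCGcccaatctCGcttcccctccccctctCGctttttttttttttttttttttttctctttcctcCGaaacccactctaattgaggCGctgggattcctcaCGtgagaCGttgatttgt
Igf2bp1 and Dnd1 had no matched promoter entry, so no CpG number is given for them. Whether CpG content bears on the differences between genotypes was not tested. Methylation was not measured in these files, so the letters describe the sequence only.

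The let-7 genes and the factors that LIN28 works with were counted next. The 12 let-7 and miR-98 gene rows summed to between 150 and 230 counts in KO/KO and between 168 and 201 counts in WT/WT, 4 of them were at 0 in every library, and none of the 4 tested was called. Such rows do not measure the mature microRNA. Of 13 microRNA maturation genes 1 rose and 1 fell, a share of 15.4%, near the 14.8% over all tested genes. Zcchc6, also named Tut7, a terminal uridylyltransferase that acts on let-7 precursors, rose to 55.3, 69.6 and 69.1 CPM in KO/KO, against 38.4, 36.8 and 34.1 CPM in WT/WT (log2 fold change 0.83, SE 0.11, edgeR adjusted p = 0.00165). No library of either genotype overlapped the other, and the call held in each fit with a library left out. Ago2, the small-RNA-guided endonuclease, fell to 34.2 ± 1.44 CPM in KO/KO, against 47.1 ± 3.54 CPM in WT/WT (SD, n = 3 each, edgeR adjusted p = 0.0123), though leaving out WT/WT replicate 3 ended its call (edgeR adjusted p = 0.0671). Zcchc11 (Tut4), the sister of Zcchc6, and Dicer1, Drosha and Dis3l2 were not called. The list median was -0.17.

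Among 14 tested let-7 target genes 1 rose and 2 fell, with a median log2 fold change of -0.10. That is 21.4% called, against 14.8% over all tested genes. Mycn, a MYC family transcription factor, fell to 31.9 ± 6.31 CPM in KO/KO, against 51.8 ± 6.14 CPM in WT/WT, and the chromatin protein gene Hmga1 fell to 136 ± 4.82 CPM in KO/KO, against 181 ± 9.21 CPM in WT/WT (SD, n = 3 each, edgeR adjusted p = 0.0146 and 0.00647). Arid3b rose to 99.0 ± 4.60 CPM in KO/KO, against 80.3 ± 1.40 CPM in WT/WT (edgeR adjusted p = 0.0291), and Trim71, abundant in both genotypes, was not called. Without WT/WT replicate 1, 2 or 3 or KO/KO replicate 3 Arid3b lost its call, and without WT/WT replicate 3 Mycn did (edgeR adjusted p = 0.0691).

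Of 15 deadenylase complex genes, among them those of CCR4-NOT, which NANOS proteins bring to transcripts, 1 rose and 1 fell, with a median of -0.05. Their share called, 13.3%, was near the 14.8% over all tested genes. Tob1, an adaptor to the deadenylase, rose to 32.8 ± 5.03 CPM in KO/KO, against 23.1 ± 1.71 CPM in WT/WT, and the catalytic subunit gene Cnot7 fell to 57.5 ± 1.02 CPM in KO/KO, against 71.4 ± 3.24 CPM in WT/WT (SD, n = 3 each, edgeR adjusted p = 0.0313 and 0.0297). Each lost its call in 6 of 14 alternatives, 5 of them with a library left out. In KO/KO 6 of the 15 lay below all WT/WT libraries and 2 above, against 17.5% and 18.2% of all tested genes. Cnot8 and the gene named Rqcd1 in the files (Cnot9) were among those below but were not called, and the scaffold gene Cnot1 was not called.

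Of 12 transcripts reported as targets of these proteins 2 rose and 5 fell, with a median of -0.03. The share called was 58.3%, against 14.8% over all tested genes, on a list chosen with earlier results known. Stra8, Sohlh2 and Taf7l, listed for NANOS2 from work in the mouse, all fell. Stra8, which opens the way to meiosis, stood at 79.6, 28.5 and 38.8 CPM in KO/KO and 105, 106 and 118 CPM in WT/WT, and the differentiation factor Sohlh2 at 34.9, 19.5 and 22.2 CPM in KO/KO and 48.3, 52.8 and 69.8 CPM in WT/WT. KO/KO replicate 1 was the nearest to WT/WT for both (log2 fold change -1.16 for each, edgeR adjusted p = 0.0297 and 0.00717). Taf7l fell by 0.38 on the log2 scale (edgeR adjusted p = 0.0153), a call lost in 2 of 14 alternatives (edgeR adjusted p up to 0.0749). Of those listed for DAZL, Sycp3 fell by 0.57 and Tex19.1 rose by 0.31 (edgeR adjusted p = 0.0131 and 0.0498), while Ddx4 and Sycp1 were not called. The call of Tex19.1 was lost in 8 of 14 alternatives (edgeR adjusted p up to 0.209) and that of Stra8 in 5, with DESeq2 among them (adjusted p = 0.0608). Sycp3 lost its call in 2 of 14 (edgeR adjusted p up to 0.0726). Chpt1, on the opposite strand, covers 52.2% of Sycp3's exon bases. Igf2, listed for the IGF2BP proteins, rose to 13.5 ± 1.34 CPM in KO/KO, against 8.56 ± 0.93 CPM in WT/WT (SD, n = 3 each, edgeR adjusted p = 0.0180). It shares 62.8% of its exon bases with Gm49394, and it lost its call in 3 of 14 alternatives. Cd44 fell to 0.314 ± 0.0200 CPM in KO/KO, against 0.981 ± 0.287 CPM in WT/WT, a call lost in 3 of 13 alternatives. Actb, Cdkn1a and Cdkn1b, also on the list, were not called (edgeR adjusted p = 0.937, 0.222 and 0.210). With 1 library left out, the number lower was between 1 and 5 and the number higher between 0 and 2. It was 0 higher without WT/WT replicate 1, 2 or 3, and 3, 2 and 1 lower in those fits. Stra8 and Sohlh2 are also markers of differentiating spermatogonia, of which 6 of 7 were lower in KO/KO, with summed levels of 177 to 289 CPM in KO/KO and 421 to 538 CPM in WT/WT. Stem spermatogonial markers summed to between 806 and 1140 CPM in KO/KO and between 523 and 576 CPM in WT/WT. Of these 9 markers 6 were higher, among them Gfra1 and Id4, whose reporter set the gate. Bcl6b was lower, and Etv5 and Shisa6 were not called. Of 8 progenitor markers 5 were lower and 1, Cdh1, was higher. Over all tested genes 8.33% were called higher and 6.42% lower. The part of these stages in the differences of Nanos2, Igf2bp1 and the target transcripts was not tested.

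Of 22 other RNA-binding protein genes listed for the germline 2 rose and 4 fell, with a median of 0.01. Those called made up 27.3%, against 14.8% over all tested genes. Msi1, a translational repressor of stem cells, fell to 95.7, 70.2 and 70.4 CPM in KO/KO, against 178, 167 and 171 CPM in WT/WT (log2 fold change -1.13, SE 0.12, edgeR adjusted p = 0.000620). The genotypes were far apart, and this call held with each library left out. Its relative Msi2 was not called. Celf1 and Rbm46 fell by 0.48 and 0.59 on the log2 scale and Fxr1 by 0.29, while Meioc rose by 0.68 and Fmr1, the relative of Fxr1, by 0.29. The call of Fxr1 (edgeR adjusted p = 0.0474) was lost in 10 of 14 alternatives and that of Fmr1 (edgeR adjusted p = 0.0287) in 6. Rbm46 lost its call in 5 of the 6 fits with a library left out, Meioc without WT/WT replicate 3, and in such fits the number higher was between 0 and 4 and the number lower between 2 and 4. For 6 of the 22 all KO/KO values exceeded all WT/WT values, as for 18.2% of all tested genes. For 8 they all lay below, as for 17.5% of tested genes. Elavl2 and Ddx4 were among the 6, and neither was called.

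**Figure D5:**
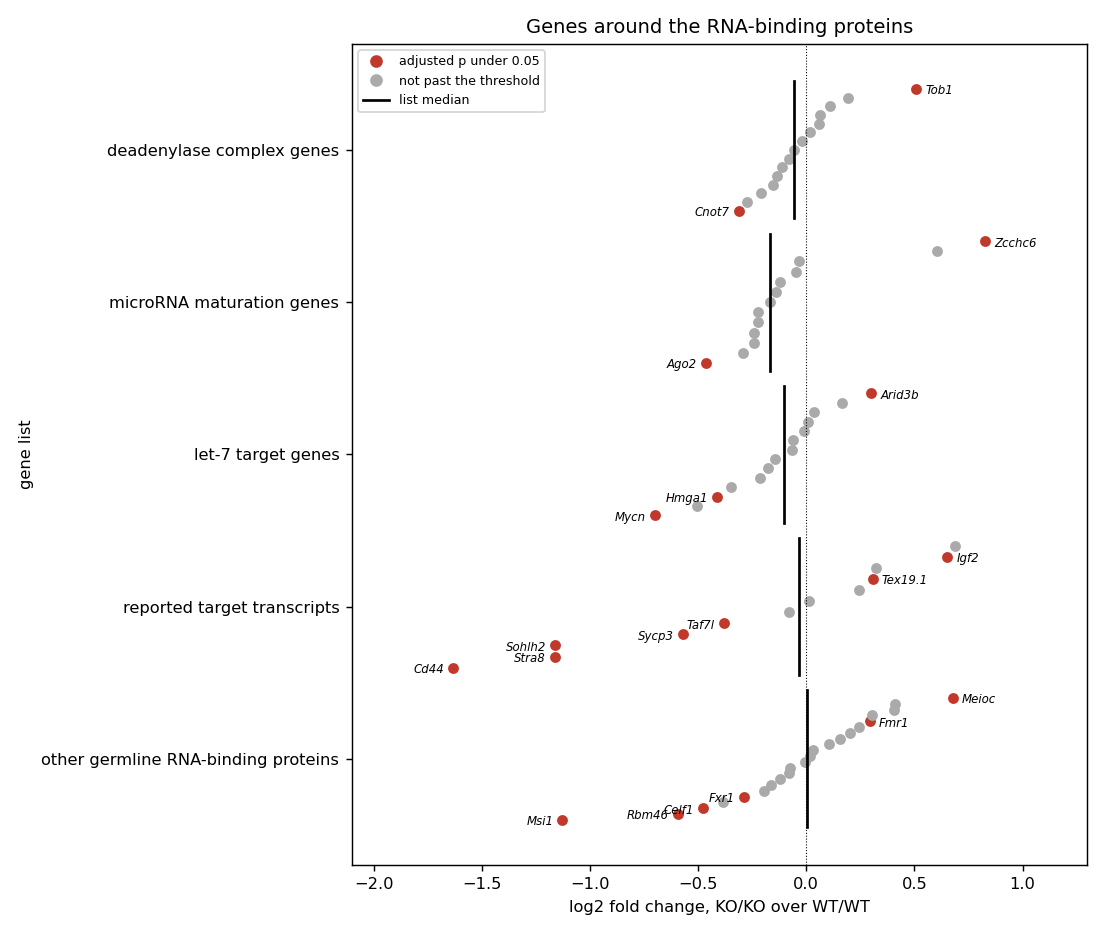
Log2 fold change of KO/KO over WT/WT for the tested genes of 5 lists, 1 point per gene, red and named where the edgeR adjusted p is under 0.05, with the list median as a black bar. The medians lie between -0.17 and 0.01, and Cd44, Stra8, Sohlh2 and Msi1 lie farthest to the left.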

How the data were processed

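Total RNA was sequenced from SMARTer stranded libraries, per the labels' protocols. The deposited files hold raw counts for genes and transposable element families. The submitters' processing notes name STAR 2.7.0a, featureCounts 1.5.1 and mm10. Annotation, strand setting and treatment of multi-mapping reads are not given in the sources used. Genotype was tested on gene rows by edgeR 4.0.16 (R 4.3.3), using quasi-likelihood F tests after filterByExpr and TMM scaling, with no other covariate. P-values are two-sided and adjusted by Benjamini-Hochberg over all tested genes, with a threshold of 0.05, and the SE is the size of the log2 fold change divided by the square root of F. The fit was checked on simulated data. CPM use the same factors, and levels per kb the exon length in GENCODE M21, on the same assembly as mm10. RefSeq promoter entries (GRCm38.p6) matched 7 of the 9 genes. No pair of libraries of 1 genotype agreed within sampling noise (chi-square per degree of freedom at least 12.4).

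The genes and lists were chosen with earlier results of these data known. Named genes are the 9, up to 4 per pathway list with the smallest p, the marker genes that define a cell type, and Dnmt3a, Id4 and Kit (38.6, 5.64 and 8.44 CPM in KO/KO and 118, 98.9 and 150 CPM in WT/WT), while other list members were named after their values were seen. A planned relative is not reported here, so permutation p-values are adjusted over the 3 pairs shown. Alternatives were RLE and upper quartile factors, 2 other filters, DESeq2 1.42.0, voom in limma 3.58.1, library sizes with transposable elements, a replicate block and leaving out each library. Python 3.11.15 with matplotlib 3.10.9 made the figures.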

Additional observations from a re-analysis of the deposited data

How the results depend on the processing

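Directions held for 8 of the 9 genes in all 14 alternatives. That of Igf2bp3 turned to 0.0248 without WT/WT replicate 3. Igf2bp1 lost its call with upper quartile factors (0.28, edgeR adjusted p = 0.0514) and with the replicate number as a block (0.28, adjusted p = 0.0732), where 1 of the 9 was called higher in each. With no filter on low counts Dazl (-0.30, adjusted p = 0.0105) and Lin28a (-0.36, adjusted p = 0.00818) were called, giving 2 lower. The cause was not tested. Same-numbered libraries of the genotypes showed little shared deviation (correlations -0.09, 0.04 and 0.02). With 3 libraries per genotype this cannot decide whether the numbers pair the samples, which the labels do not say. Under the block 4 pathway genes were higher, against 8.

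With 1 library left out, log2 fold changes ranged from 0.77 to 1.12 for Nanos2, 0.24 to 0.35 for Igf2bp1, -0.40 to -0.20 for Dazl, -0.56 to -0.17 for Lin28a and -0.18 to 0.0248 for Igf2bp3. The 9 genes gave 0 to 1 higher and 0 to 1 lower, the pathway genes 2 to 8 higher and 5 to 15 lower (8 and 14 with all libraries), and all genes 814 to 1985 higher and 560 to 1380 lower (1776 and 1368 with all libraries). The fits without WT/WT replicate 1, 2 and 3 gave 1083, 814 and 892 higher and 652, 560 and 663 lower. The log2 fold change of Boll ranged from -0.22 to 0.0330, without KO/KO replicate 3, and that of Pum3 from -0.0961 to 0.0306, without KO/KO replicate 2. Such fits hold fewer samples. With all libraries kept, RLE factors ended the calls of Tex19.1 and Fxr1, upper quartile factors those of Tex19.1, Fxr1 and Fmr1, the 1 CPM filter that of Fxr1, DESeq2 those of Fxr1 and Stra8, and library sizes with transposable elements that of Tex19.1. The block ended those of Cnot7, Tob1, Arid3b, Tex19.1, Cd44, Fmr1 and Fxr1. Nanos2 rests on 89 to 360 counts a library.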
